A study of Mus musculus with 9 samples.

Results

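Tropomyosins, calponins, transgelin-2, caldesmon and the subunits of nonmuscle myosin II bind or move actin filaments. The 10 genes of this kind examined here, Tpm1, Tpm3, Tpm4, Cnn2, Cnn3, Tagln2, Cald1, Myl9, Myh9 and Myl12a, were chosen by name, with earlier results of these data known. All 10 were found among the 22524 genes counted. Their RNA was measured in primary macrophages grown from mouse bone marrow for 7 days (bone marrow-derived macrophages, BMDMs), all of strain C57BL/6. The 9 libraries form 3 groups of 3. The untreated control and the control given lipopolysaccharide (LPS) for 6 h are of wild-type genotype, and the last group is of SRF-KO genotype and also had LPS for 6 h. LPS is a bacterial cell wall component that macrophages sense, and SRF (serum response factor) binds DNA and controls transcription. The labels used here do not say how Srf was deleted, in which cells, or whether the 3 libraries of a group came from separate animals. P-values therefore measure the spread between these libraries, which may be technical. Untreated SRF-KO cells were not analysed here.

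Tropomyosins are coiled-coil proteins that lie along actin filaments and decide which myosins and filament-severing proteins gain access to them. Calponins, the related transgelins and caldesmon bind filaments and restrain or bundle them, and nonmuscle myosin II, built from heavy chains and 2 kinds of light chain, pulls on them. SRF with its actin-sensing MRTF cofactors is known to switch on many genes of this machinery by binding a DNA sequence called the CArG box, and macrophages use the machinery to spread, crawl and engulf.

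CArG boxes were searched in the 250 bases upstream of RefSeq transcription starts, because the comparison of SRF-KO with control bears on them. The motif, CC and GG around 6 bases of A or T, reads the same on both strands. An exact match lay in 2 of the 12 windows of the 10 genes (16.7%) and in 482 of 32817 windows of all genes (1.47%). The matches were in Cnn2, at chr10:79988544-79988553, 47 to 56 bases upstream of the start, and in Myl9, at chr2:156775303-156775312, 152 to 161 bases upstream. Both stretches are printed with the motif in capitals, on the plus strand of GRCm38.p6 and ending before the first base that GENCODE annotates as transcribed. Cnn2 covers chr10:79988350-79988583 and Myl9 chr2:156775214-156775419.
Cnn2: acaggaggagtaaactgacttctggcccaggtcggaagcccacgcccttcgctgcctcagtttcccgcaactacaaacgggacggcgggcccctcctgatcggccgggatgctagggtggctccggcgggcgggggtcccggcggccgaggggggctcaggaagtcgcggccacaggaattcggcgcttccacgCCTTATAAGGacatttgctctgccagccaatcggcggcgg
Myl9: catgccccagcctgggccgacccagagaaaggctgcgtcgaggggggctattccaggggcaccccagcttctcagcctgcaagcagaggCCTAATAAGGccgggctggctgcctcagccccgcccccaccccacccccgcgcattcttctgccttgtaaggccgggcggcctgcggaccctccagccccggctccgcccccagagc

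With 1 mismatch allowed, 7 of the 12 windows (58.3%) and 18.6% of all windows held a match. A site added in this way in Tpm1, which has a further one, and that of Myl12a are printed with their neighbouring bases, in the direction of transcription and with the 10-base site in capitals, because these 2 genes differ in what follows. The first exact match of Srf itself, 73 to 82 bases upstream, is set beside them. The Tpm1 site lies at chr9:67049425-67049434, the Myl12a site at chr17:71002542-71002551 and the Srf site at chr17:46556235-46556244, all on the minus strand. The Myl12a site lies inside the span that GENCODE gives for the gene, downstream of its first start.
Tpm1: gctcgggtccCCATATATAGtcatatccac
Myl12a: tcctcaattgCCCTAAAAGGacttagac
Srf: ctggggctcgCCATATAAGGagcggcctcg
The Tpm1 site misses the motif at position 9 and the Myl12a site at position 3, counted from the first capital. No match within 1 mismatch was found in the windows of Tpm4, Cnn3, Tagln2 and Myh9, which says only that these letters are not in this stretch. The whole Tpm4 window, most of the Tagln2 window and part of the Cnn3 window lie inside the GENCODE span of the gene. For Tpm4 the bases upstream of the first GENCODE start were thus not searched. Whether SRF binds any of these sites was not measured.

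Each library held between 15321839 and 24912173 counts, and 11560 genes passed the filter on low counts. Levels are CPM, the reads of a gene per 1e6 effective reads, after TMM scaling (trimmed mean of M-values), which takes most genes to be unchanged. They are given as mean ± SD over n = 3 libraries. Differences are log2 fold changes with their standard error (SE) from edgeR's quasi-likelihood test, adjusted over all 11560 genes, and a gene was called higher or lower at an adjusted p below 0.05. Scaling matters here: when plain library totals replaced TMM, the median log2 fold change of all tested genes moved from -0.02 to -0.57 for LPS against untreated and from 0.01 to 0.37 for SRF-KO against control with LPS. The knockout showed in the counts of Srf, which were 810, 975 and 884 in the untreated control, 738, 799 and 900 in the control with LPS and only 34, 24 and 12 in SRF-KO. The 4 Y-linked genes on the list, Eif2s3y, Kdm5d, Ddx3y and Uty, had a summed level of 115 to 146 CPM in the 6 control libraries and at most 0.135 CPM in SRF-KO. Sex-linked expression and Srf genotype cannot be told apart in any comparison that involves SRF-KO. All 8 listed macrophage markers (Adgre1, Csf1r, Cd68, Itgam, Fcgr1, Mertk, Lyz2 and Cd14) were detected, with a summed level of 16684 to 24415 CPM per library, to which Lyz2 gave the largest part. They did not move together: from the untreated control to the control with LPS and SRF-KO, Cd14 was at 248, 3189.7 and 5354 CPM, Cd68 at 2015, 1409 and 553 CPM and Fcgr1 at 684, 1853 and 84.2 CPM, while Mertk had 2836, 933 and 287 counts. Among markers of other cells, the endothelial sum (mostly Kdr) was 17.9 to 21.2, 62.4 to 70.2 and 9.19 to 11.1 CPM in the same order, highest with LPS and lowest in SRF-KO as for Tpm3, Cnn2 and Myl12a. The part of these differences in the results was not tested.

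Of the 10 genes, 9 could be tested, and Cnn3 and Cald1 came through the count filter only by the group in which they were high, so they are described by their counts and no test is given for them. In control cells 5 of the other 7 genes rose with LPS and 2 fell, where 81.7% of all tested genes were called. Higher calls made up 40.8% of all genes and lower calls 40.8%. Between SRF-KO and control with LPS, 5 of these 7 were lower and 1 higher, where 77.0% of all genes were called, 37.9% lower and 39.1% higher. All libraries of 1 group lay on the same side of the other, with no overlap, for all 7 in both comparisons (82.1% and 78.0% of all genes). The median log2 fold change was 0.54 for LPS and -0.69 for SRF-KO, beside -0.02 and 0.01 over all genes tested. Both comparisons use the same control libraries with LPS. Cnn3 and Cald1 were set aside after their values were seen. With library totals, Tpm3, Tagln2 and Myl12a were no longer called for LPS, and between genotypes Tpm1 and Tagln2 were called higher. Over all 11560 genes, library totals called 2429 higher and 7835 lower for LPS and 7059 higher and 2437 lower in SRF-KO.

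**Figure D1:**
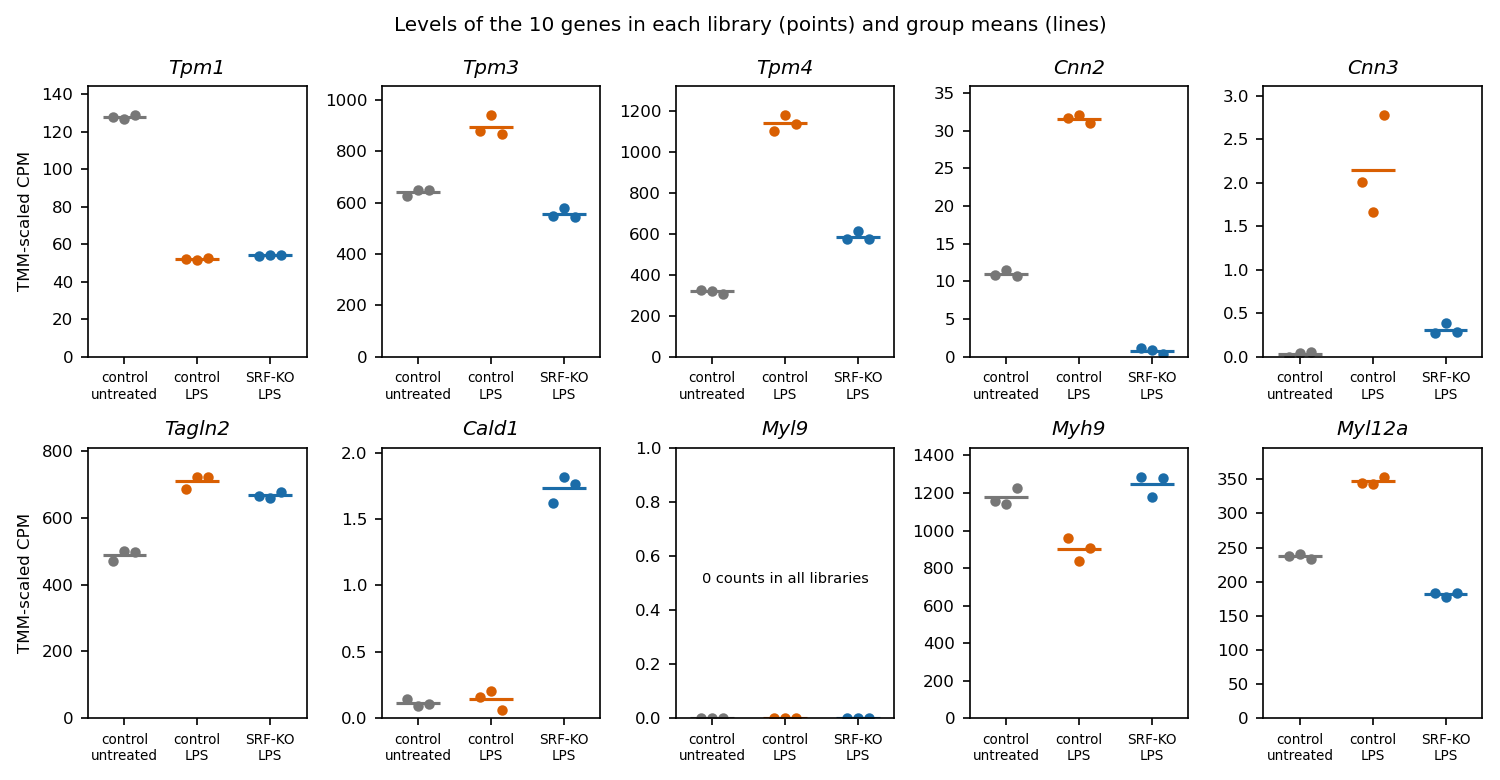
TMM-scaled CPM (vertical axis, from 0, its range set per gene) of the 10 genes in each of the 9 libraries (points) with group means (lines). Tpm4, Cnn2, Cnn3 and Myl12a are highest in the control with LPS, Tpm1 is low in both LPS groups, Cald1 is high in SRF-KO, and Myl9 has 0 counts throughout.

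The tropomyosin genes responded to LPS in opposite directions. Tpm4 (ENSMUSG00000031799, chr8:72134975-72153142, plus strand, GRCm38), which encodes a short tropomyosin of nonmuscle cells, was at 328, 321 and 309 CPM in the untreated control, 1104, 1182 and 1140 CPM in the control with LPS and 574, 613 and 576 CPM in SRF-KO. The 3 groups did not overlap, and SRF-KO lay between the others. The log2 fold change of Tpm4 with LPS was 1.84 (SE 0.0404, adjusted p = 3.67e-32), and 1.29 with library totals. In SRF-KO it was lower than in the control with LPS by a log2 fold change of -0.96 (SE 0.0391, adjusted p = 3.97e-23), yet above the untreated control by 0.88 (SE 0.0398, adjusted p = 1e-21). In bulk samples such as these, a change in the share of cells of a type and a change in RNA per cell cannot be told apart. Of the 50-base stretches in Tpm4 transcripts, 15.7% occur in other annotated genes, among them an antisense gene.

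Tpm1 (ENSMUSG00000032366, chr9:67022590-67049406, minus strand), a gene with many spliced forms of which the long ones serve muscle and stress fibres, was at 128, 127 and 129 CPM in the untreated control. It stood at 52.0, 51.8 and 52.7 CPM in the control with LPS and at 53.7, 54.5 and 54.3 CPM in SRF-KO. All 6 libraries with LPS lay far below the 3 untreated ones. In control cells its log2 fold change was -1.29 (SE 0.0459, adjusted p = 3.06e-25). Between the genotypes the log2 fold change was 0.05 (SE 0.0490, adjusted p = 0.319), although the SRF-KO libraries all lay slightly above the control ones. With library totals it became 0.41 (adjusted p = 1.34e-09), beside a median of 0.37 over all genes.

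Tpm3 (ENSMUSG00000027940, chr3:90072649-90100902, plus strand), the source of further short nonmuscle tropomyosins, was at 628, 648 and 648 CPM in the untreated control. Its levels were 879, 942 and 868 CPM in the control with LPS and 547, 578 and 546 CPM in SRF-KO. Here SRF-KO fell below both control groups. The rise with LPS was 0.48 (log2 fold change, SE 0.0390, adjusted p = 4.32e-14) but -0.07 (adjusted p = 0.102) with library totals, so its direction depends on the scaling. The lower level in SRF-KO held under both scalings, at -0.69 (SE 0.0391, adjusted p = 1.64e-18) and -0.33 with library totals (adjusted p = 5.77e-10). Against the untreated control Tpm3 in SRF-KO was lower by a log2 fold change of -0.20 (SE 0.0389, adjusted p = 1.29e-05). Of the distinct 50-base stretches in Tpm3 transcripts, 23.2% also occur in its near-copy Tpm3-rs7, which had between 91 and 111 counts per group against 36690 to 38698 for Tpm3. Reads that fit both could be lost or split, and neither the read length nor the handling of such reads is given in the labels.

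**Figure D2:**
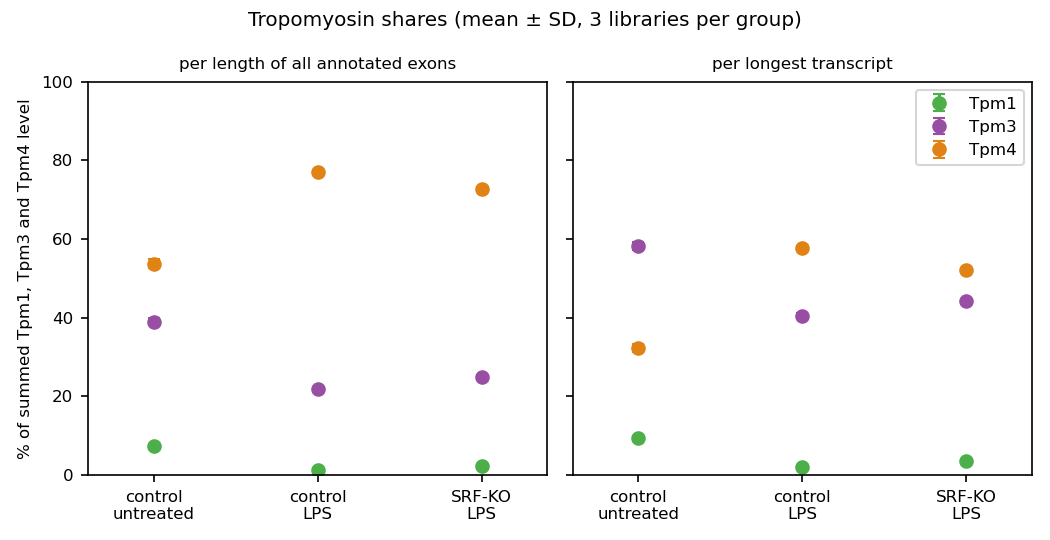
Share of Tpm1, Tpm3 and Tpm4 in their summed level per kilobase (vertical axis, percent; mean ± SD of 3 libraries, with bars smaller than many points), using the length of all annotated exons (left) or of the longest transcript (right). In both panels the Tpm4 share is lowest in the untreated control and highest in the control with LPS, and the Tpm1 share is highest in the untreated control.

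Per length, the make-up of tropomyosin RNA shifted towards Tpm4. On the scale of CPM per kilobase of annotated exon, Tpm4 held 53.7% ± 1.08 of the summed level of the 3 genes in the untreated control, 76.9% ± 0.430 in the control with LPS and 72.8% ± 0.136 in SRF-KO (SD, n = 3). Tpm1 held 7.30% ± 0.144, 1.20% ± 0.0457 and 2.28% ± 0.0670 in the same order. These shares do not depend on the scaling between libraries. The ratio of Tpm4 to Tpm1 per length rose from 7.35 ± 0.268 to 64.4 ± 2.41 with LPS and was 31.9 ± 1.01 in SRF-KO, with no overlap between groups. The order of Tpm3 and Tpm4 does depend on the length used: with the longest transcript, Tpm3 led in the untreated control (58.2% against 32.3% for Tpm4) and Tpm4 in both LPS groups. The summed level was 270.1 ± 3.00, 674 ± 23.4 and 367 ± 12.9 CPM per kilobase in the 3 groups. Gene counts do not separate the muscle and nonmuscle forms of Tpm1 and Tpm3. The striated and smooth muscle relative Tpm2 had only 13, 10 and 4 counts per group and was not tested.

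Among calponins, Cnn2 lost nearly all of its RNA in SRF-KO. Cnn2 (ENSMUSG00000004665, chr10:79988584-79996062, plus strand) encodes calponin-2, a form known from macrophages and other cells outside muscle. It was at 10.9, 11.5 and 10.7 CPM in the untreated control, 31.7, 32.1 and 31.1 CPM in the control with LPS and 1.13, 0.928 and 0.397 CPM in SRF-KO. The SRF-KO libraries lay far below both control groups. Cnn2 rose with LPS (log2 fold change 1.52, SE 0.0860, adjusted p = 1.1e-18). In SRF-KO it stood at 2.69% of the control with LPS, a log2 fold change of -5.21 (SE 0.136, adjusted p = 1.81e-29). The summed counts were 1338 in the control with LPS and 56 in SRF-KO, a scaled ratio of 37.1 with a 95% exact interval of 28.4 to 49.3. Compared with untreated control cells, Cnn2 was lower in SRF-KO by -3.70 (SE 0.160, adjusted p = 2.5e-22). Of the 9 tested genes, Cnn2 had the largest log2 fold change between the genotypes with TMM, median-of-ratios factors and library totals. Whether its CArG box has a part in this difference was not tested. Intervals from counts cover counting error only, since reads without molecular identifiers are not independent molecules.

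Cnn3 (ENSMUSG00000053931, chr3:121426497-121458207, plus strand), calponin-3, was detected mainly in the control with LPS, at a far lower level than Cnn2. It had 0, 1 and 1 counts in the untreated control, 25, 24 and 43 in the control with LPS and 6, 10 and 5 in SRF-KO. The 92 counts with LPS against 2 without gave a scaled ratio of 65.6. The control with LPS stood above SRF-KO, 92 against 21 counts, by a ratio of 6.80. Both ratios describe these few counts and are no test, since Cnn3 came through the count filter by the control with LPS. Of its 50-base stretches 24.0% occur in 3 other annotated genes, 1 of them antisense to it, which were not analysed here. Cnn1, the smooth muscle calponin, had 0 of 166309349 counts over the 9 libraries, which allows up to 0.0178 CPM.

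Tagln2 (ENSMUSG00000026547, chr1:172500047-172507380, plus strand) encodes transgelin-2, a calponin relative of blood and other nonmuscle cells. Per kilobase of exon it supplied 98.1% ± 0.0736 of the summed Cnn2, Cnn3 and Tagln2 level in the untreated control, 96.2% ± 0.102 in the control with LPS and 99.9% ± 0.0504 in SRF-KO. In CPM it stood at 469.5, 501 and 496 in the untreated control, 687, 723 and 722 in the control with LPS and 666, 659.9 and 678 in SRF-KO. Both LPS groups were above the untreated one, and the 2 LPS groups lay close together. Its log2 fold change with LPS was 0.54 (SE 0.0381, adjusted p = 8.99e-16), or -0.01 (adjusted p = 0.817) with library totals. Between genotypes it was -0.09 (SE 0.0378, adjusted p = 0.0319), and 0.27 with library totals (adjusted p = 3.95e-08). The small difference by genotype thus has no stable direction, and it also lost its call when control LPS replicate 2 (adjusted p = 0.0967), control LPS replicate 3 (0.118), SRF-KO replicate 1 (0.0758) or SRF-KO replicate 2 (0.0705) was left out. Tagln, the smooth muscle transgelin, had 1, 4 and 3 counts per group.

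Cald1 had nearly all of its counts in SRF-KO. Cald1 (ENSMUSG00000029761, chr6:34598500-34775473, plus strand) encodes caldesmon, which binds actin, tropomyosin and myosin. It had 3, 2 and 2 counts in the untreated control, 2, 3 and 1 in the control with LPS and 36, 47 and 31 in SRF-KO, or 1.62 to 1.82 CPM in the last. Both control groups were near 0 and overlapped, and all SRF-KO libraries were above them. Cald1 came through the count filter only by SRF-KO, so ratios that involve SRF-KO describe the counts and are no test. The scaled ratio of SRF-KO to control with LPS was 12.2. For LPS against untreated it was 1.22 (95% exact interval 0.339 to 4.25). Of 13 listed markers of smooth muscle cells and fibroblasts, only Acta2 and Pdgfrb passed the filter on low counts, and the summed level of all 13 was 0.531 to 0.670 CPM in the untreated control, 13.8 to 18.7 CPM in the control with LPS and 27.8 to 30.5 CPM in SRF-KO. Most of this was Pdgfrb (0.132, 14.8 and 27.4 CPM), while Cnn1, Col1a1 and Col3a1 were at 0 counts in all groups. Acta2, smooth muscle actin, had 16, 12 and 87 counts in the 3 groups and also came through the filter only by SRF-KO. Dcn had 2, 12 and 28 counts and Lum 0, 1 and 15, and the other 6 markers (Myh11, Des, Tagln, Col1a2, Pdgfra and Thy1) had at most 5 counts in any group. Their part in the Cald1 result was not tested.

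The myosin subunits moved apart. Myh9 (ENSMUSG00000022443, chr15:77760587-77842175, minus strand), the heavy chain of nonmuscle myosin IIA, was at 1157, 1144 and 1229 CPM in the untreated control, 961, 839.7 and 906 CPM in the control with LPS and 1288, 1178 and 1278 CPM in SRF-KO. The control with LPS was the lowest group, and the other 2 groups overlapped. With LPS its log2 fold change was -0.38 (SE 0.0440, adjusted p = 4.72e-10), and -0.93 with library totals. It was higher in SRF-KO than in the control with LPS by 0.47 (SE 0.0440, adjusted p = 3.73e-12), or 0.82 with library totals. Against the untreated control the difference was 0.08 (SE 0.0436, adjusted p = 0.075). That last comparison is unsettled: with the replicate number as a block it passed (adjusted p = 0.0323), without untreated replicate 3 or SRF-KO replicate 2 it was 0.12 and passed (adjusted p = 0.024 and adjusted p = 0.0161), and with library totals it was -0.11 (adjusted p = 0.0202).

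Myl12a (ENSMUSG00000024048, chr17:70993656-71002878, minus strand) encodes a regulatory light chain, the subunit whose phosphorylation switches nonmuscle myosin II on. Its levels were 238, 241 and 233 CPM in the untreated control, 344, 343 and 354 CPM in the control with LPS and 183, 178 and 184 CPM in SRF-KO. The 3 groups did not overlap, with SRF-KO lowest. The log2 fold change with LPS was 0.55 (SE 0.0368, adjusted p = 2.02e-16), but -0.0018 with library totals (adjusted p = 0.965). In SRF-KO, Myl12a was lower than in the control with LPS by -0.93 (SE 0.0372, adjusted p = 1.89e-23), -0.58 with library totals, and lower than in the untreated control by -0.39 (SE 0.0371, adjusted p = 6.01e-12). The per-length ratio of Myl12a to Myh9, free of any scaling, was 0.777 ± 0.0424, 1.48 ± 0.0994 and 0.561 ± 0.0191 in the 3 groups and did not overlap between them.

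The neighbouring light chain gene Myl12b was at 125 ± 3.45, 113 ± 1.74 and 110.1 ± 3.91 CPM, with a log2 fold change of -0.03 between genotypes (SE 0.0428, adjusted p = 0.465), or 0.32 with library totals (adjusted p = 1.38e-08). Of the 50-base stretches of Myl12a, 16.2% occur in a second gene model also named Myl12b that overlaps it and is not analysed here, and 5.65% in the Myl12b model that was counted, so their reads are not fully separable. Myl9 (ENSMUSG00000067818, chr2:156775420-156781658, plus strand), the regulatory light chain of smooth muscle, had 0 of 166309349 counts in the 9 libraries, which allows up to 0.0178 CPM. No fold change can be given for it, although its promoter holds an exact CArG box.

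**Figure D3:**
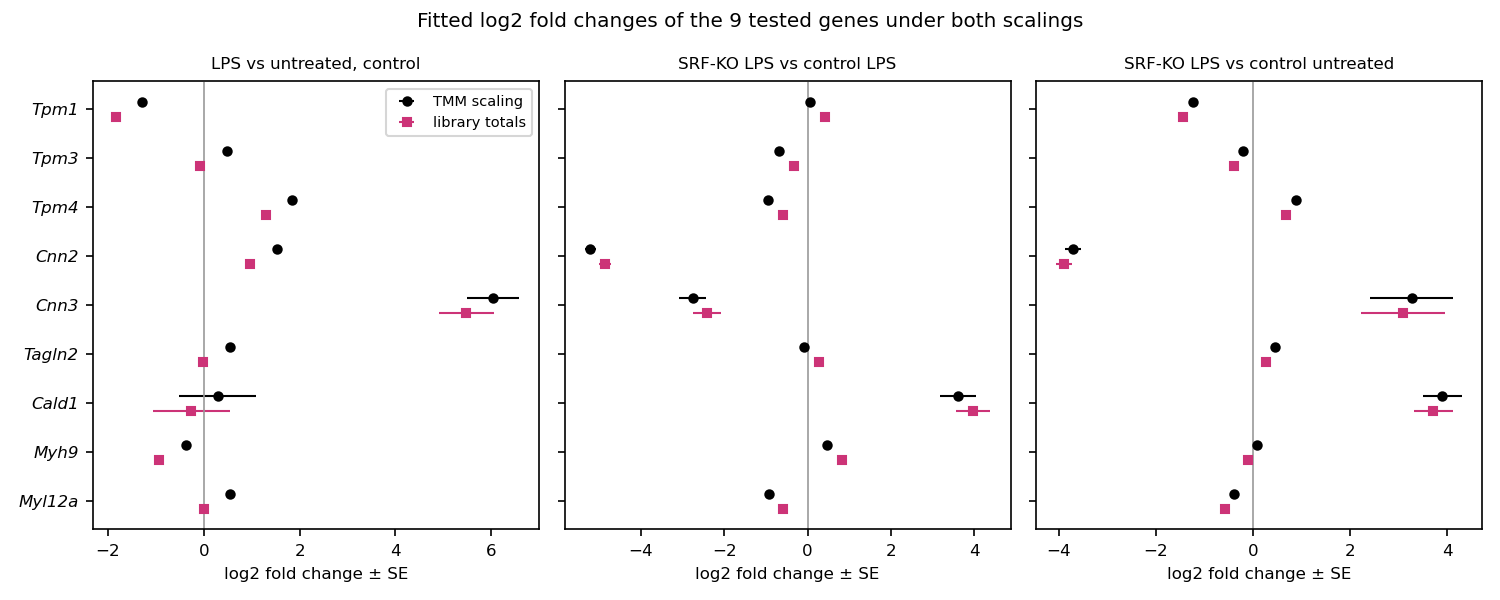
Log2 fold change ± SE (horizontal axis) of the 9 tested genes in the 3 comparisons, with TMM scaling (circles) and library totals (squares). Cnn3 and Cald1 came through the count filter only by the group in which they were high. No test is given for them, and their bars are not to be read as one. Tpm3, Tagln2 and Myl12a sit above 0 for LPS with TMM and at or just below 0 with library totals, whereas Tpm1, Tpm4, Cnn2, Cnn3 and Myh9 keep their side.

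Set against untreated control cells, SRF-KO cells with LPS had 2 of the same 7 genes higher (Tpm4 and Tagln2), 4 lower (Tpm1, Tpm3, Cnn2 and Myl12a) and Myh9 not called, where 79.5% of all genes were called, 39.4% higher and 40.1% lower. This comparison reuses the libraries of the other 2 and adds no independent evidence. Cnn3 had 21 counts against 2, a scaled ratio of 9.65 on few counts, and Cald1 had 114 against 7, with no test given for either. Tpm3, Myl12a and Cnn2 were below the untreated control although with TMM they were highest in the control with LPS. With library totals Tpm3 and Myl12a were not higher with LPS than in the untreated control. Tpm1 was lower by -1.24 (SE 0.0433, adjusted p = 2.1e-25).

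By level per kilobase of exon, Tagln2 led in the untreated control (235 ± 8.18) and in SRF-KO (321 ± 4.50), and Tpm4 led in the control with LPS (518 ± 17.8 CPM per kilobase). In all 3 groups Tagln2, Tpm4, Tpm3, Myh9 and Myl12a formed the upper 5, between 54.1 and 518 CPM per kilobase, and Cnn3, Cald1 and Myl9 the lowest 3, below 1. Neighbours in this order overlapped in 2 places, Cnn3 and Cald1 in the untreated control and Myh9 (96.5 ± 4.70) and Tpm3 (91.5 ± 2.98) in SRF-KO.

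Other genes of the actomyosin system were taken from a list of 47, of which 33 were tested. With LPS 19 rose and 11 fell (median log2 fold change 0.19, against -0.02 over all genes), so 90.9% were called where 81.7% of all genes were. Between SRF-KO and control with LPS 11 were higher and 13 lower (median -0.09, against 0.01), so 72.7% were called where 77.0% of all genes were. The 11 include Acta2, which came through the count filter only by SRF-KO, so its call is no evidence. With library totals the counts turned to 6 and 23 for LPS and to 23 and 7 for SRF-KO, so no direction can be given for the list. Over all 11560 genes, library totals gave 2429 higher and 7835 lower for LPS and 7059 higher and 2437 lower for SRF-KO.

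Ppp1r12b, a targeting subunit of the phosphatase that switches myosin off, rose with LPS from 30.1 ± 2.07 to 147 ± 2.80 CPM (log2 fold change 2.29) and was at 143 ± 4.21 CPM in SRF-KO, where its difference from the control with LPS did not pass (log2 fold change -0.04, adjusted p = 0.391; 0.32 with library totals). Rhoc rose from 34.7 ± 2.10 to 99.7 ± 2.15 CPM. Tmod3, which caps filament ends together with tropomyosin, rose from 117 ± 5.29 to 226 ± 1.62 CPM and was at 166 ± 3.53 CPM in SRF-KO, a log2 fold change of -0.44 between genotypes (adjusted p = 8.49e-13; -0.09 with library totals). Its course, up with LPS and lower in SRF-KO, had the same signs as that of Tpm4. Rnd3 rose from 18.0 ± 0.482 to 55.1 ± 2.44 CPM and was at 22.2 ± 2.30 CPM in SRF-KO.

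Others had the opposite signs. Rhob fell with LPS from 90.8 ± 7.40 to 26.8 ± 1.02 CPM and was at 123 ± 3.95 CPM in SRF-KO (log2 fold change 2.21 between genotypes). Rock2, a kinase that activates myosin II, fell from 76.6 ± 3.05 to 40.9 ± 3.36 CPM and was at 88.2 ± 3.82 CPM in SRF-KO. Cit, the citron kinase of dividing cells, went from 13.2 ± 0.810 to 2.20 ± 0.681 CPM and was at 20.5 ± 2.05 CPM in SRF-KO. S100a4, a calcium-binding partner of nonmuscle myosin IIA, was at 668 ± 64.8, 497 ± 22.9 and 996 ± 62.7 CPM. Myh9 shared these signs. The changes of Rhob, Rock2, Cit and S100a4 in both comparisons kept their direction with library totals. Myl6, the other kind of myosin II light chain, was at 364 ± 6.38, 391 ± 16.7 and 282 ± 15.2 CPM. Its log2 fold change with LPS was 0.10 (adjusted p = 0.0229), turning to -0.45 with library totals, and between genotypes -0.47 (adjusted p = 4.28e-13), or -0.11 with library totals.

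**Figure D4:**
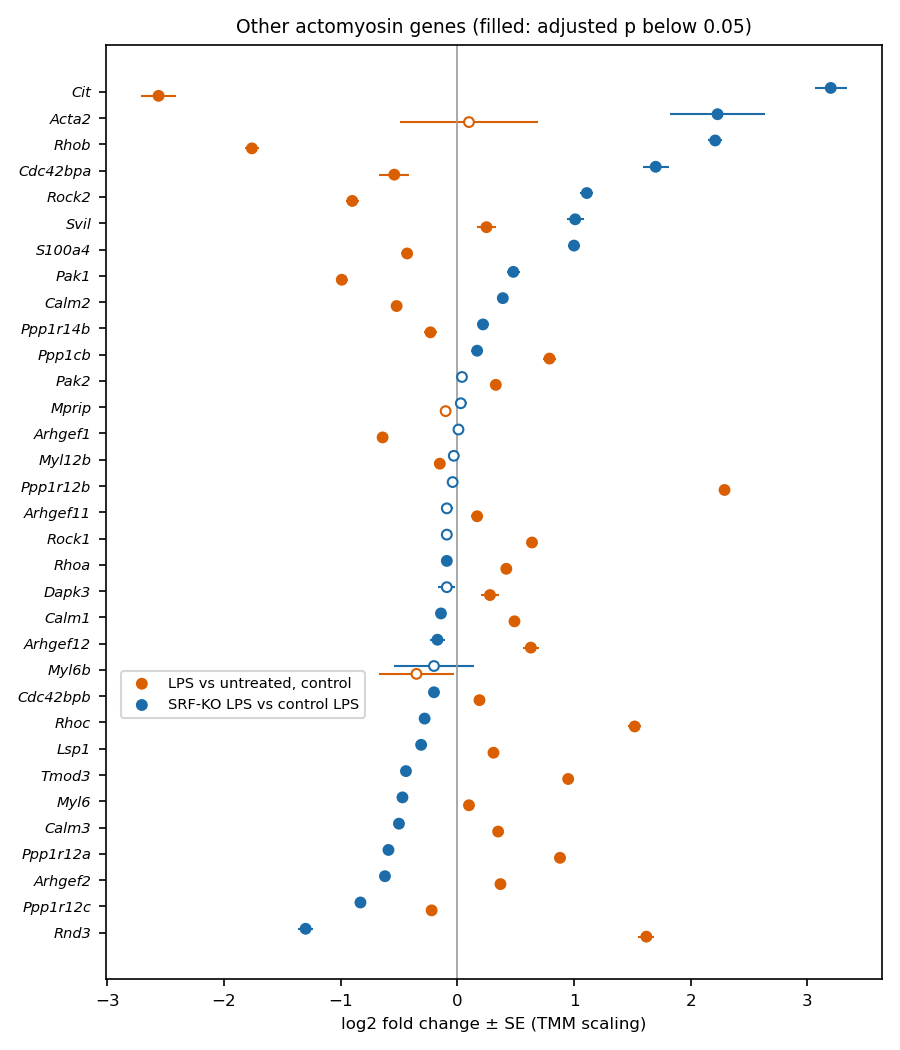
Log2 fold change ± SE (horizontal axis, TMM scaling) of the 33 tested genes of the actomyosin list for LPS against untreated in control cells and for SRF-KO against control, both with LPS. Filled points passed at an adjusted p below 0.05. Acta2 came through the count filter only by SRF-KO. Cit, Rhob and Rock2 are low with LPS and high in SRF-KO, and Rnd3, Tmod3 and Ppp1r12a are high with LPS and low in SRF-KO.

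For each tested member, the gene with the most similar course was sought among 8275 other genes, by the root mean square distance of their centred log2 CPM over the 9 libraries. Tpm4 lay nearest to Ifngr2, the second chain of the interferon-gamma receptor (distance 0.04; 136 ± 4.91, 479.6 ± 19.6 and 244 ± 4.10 CPM in the 3 groups). Tpm3 lay nearest to Atxn7l3b (0.04), Myl12a to the lipid droplet gene Plin2 (0.04), Tpm1 to Dtnbp1 (0.05), Tagln2 to Btbd7 (0.03) and Myh9 to Slc38a10 (0.03). Among the genes searched, Cnn2 had no neighbour as close: the nearest was the Fc receptor gene Fcgr1 at 0.44, whose levels are given above. Genes with a mean log2 CPM below 3 were not searched, and large changes and few counts widen this distance. Cnn3 was nearest to Nod1 (0.23) and Cald1 to Emb (0.27), on the few counts given above for these 2 genes. The libraries of a group share their treatment and genotype, so these distances describe 3 group levels more than 9 separate points.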

How the data were processed

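Total RNA went into a stranded TruSeq protocol, per the labels. Each deposited file gives, for 1 library, the raw count of reads matched to every gene by Ensembl identifier, with no normalization, per the file headers. Tools listed in the submitters' processing notes are featureCounts, STAR 2.5.4b, Trimmomatic, bcl2fastq 2.19 and edgeR, with the build GRCm38 but no options or roles. Which annotation release and strand setting served for counting was not stated in the labels. Symbols were matched for 22214 of 22524 identifiers; gene positions and exon lengths came from GENCODE M21 and promoter windows from RefSeq, both on GRCm38.

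The counts were fitted with edgeR 4.0.16 under R 4.3.3: filterByExpr by group (11560 genes), TMM, robust glmQLFit on all 9 libraries with group as the only term, glmQLFTest, and Benjamini-Hochberg adjustment with a threshold of 0.05. DESeq2 1.42.0 was an alternative. The others were library totals, median-of-ratios factors, no count filter, only the 2 groups compared, the replicate number as a block, each library left out, another gene length and 1 motif mismatch. The steps were tested on simulated counts. Replicates differed by more than sampling noise (chi-square per degree of freedom 1.75 to 3.95 for genes with 20 or more counts in a pair). The members and lists were chosen with earlier results of these data known. Named genes were the 10 members, Srf, the 5 genes of the actomyosin list with the smallest p in each of the first 2 comparisons, 6 close relatives (Tpm2, Cnn1, Tagln, Myl12b, Myl6 and Acta2) and, for each member, the nearest gene whose log2 CPM averaged 3 or more. Marker genes and close copies are named beside results they touch, and Ppp1r12a was named after its values were seen. The neutrophil list gave summed levels of 1.97 to 7.33 CPM in the controls and at least 18.7 CPM in SRF-KO, there mostly S100a8. From the untreated control to the control with LPS and SRF-KO, S100a8 was at 0.644, 5.10 and 16.1 CPM. S100a9 was at 0.883, 0.566 and 0.434 CPM. In the same order Camp had 0, 46 and 167 counts, Ltf 29, 2 and 10 and Cxcr2 6, 2 and 2. Ly6g, Mpo and Elane had 0 counts in SRF-KO. The platelet and megakaryocyte list, mostly Pf4, gave 143 to 159, 174 to 185 and 127 to 135 CPM in the 3 groups. The B cell list gave at most 0.483 CPM. The T cell list, mostly Cd4 in the controls, gave 2.94 to 5.12, 2.00 to 2.58 and at most 0.0774 CPM.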

Additional observations from a re-analysis of the deposited data

How the results depend on the processing

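DESeq2, median-of-ratios factors, no count filter and the 2-group fits kept every direction of the 9 tested genes. They also kept every call of the 7 genes other than Cnn3 and Cald1, with 1 exception. Tagln2 between genotypes lost its call without the count filter (adjusted p = 0.0664). For 2 of the 2-group values no fit was possible because the gene failed the filter. With library totals, 3 of the 9 genes were higher with LPS and 4 higher in SRF-KO than in the control with LPS. The actomyosin list then had 6 higher and 23 lower for LPS, and 23 higher and 7 lower for SRF-KO against control with LPS. For SRF-KO against the untreated control the list had 14 lower with library totals, and 19 higher and 8 lower with TMM. Over all 11560 genes, library totals gave 3448 higher and 6044 lower in that comparison, so the 14 show no drop particular to the list. Library totals reversed Tpm3 (-0.07), Tagln2 (-0.01), Cald1 (-0.26) and Myl12a (-0.0018) for LPS, Tagln2 (0.27) between genotypes and Myh9 (-0.11) against the untreated control. Leaving out 1 library changed calls of Tagln2 between genotypes and of Myh9 against the untreated control, and no others among the 7 genes. Cald1 for LPS, never called, ranged from -0.11 (without control LPS replicate 2) to 0.68. The titles give replicate numbers. Deviations of same-numbered libraries from their group means correlated at -0.075 to 0.097 (9 pairs), beside -0.11 to 0.111 for different numbers (18 pairs). These low correlations over all genes cannot settle whether the numbers mark pairs. The replicate block changed 1 call among the 7 genes, Myh9 against the untreated control (0.08, adjusted p = 0.0323).

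With the longest transcript as length, the shares of Tpm1, Tpm3 and Tpm4 were 9.53%, 58.2% and 32.3% in the untreated control, 1.94%, 40.5% and 57.6% in the control with LPS and 3.54%, 44.3% and 52.2% in SRF-KO. Cnn2 held 1.43% and 2.78% and Tagln2 98.6% and 97.0% in the control groups. With 1 mismatch, 7 promoter windows held a CArG box. Depth limits Cnn3, Cald1 and Cnn2 in SRF-KO, which rest on 2 to 114 counts per group.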

Other observations

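In the SRF-KO libraries the remaining counts of Srf were 34, 24 and 12 in replicates 1, 2 and 3, and those of Cnn2 were 25, 24 and 7 in the same libraries. In CPM these were 1.53, 0.928 and 0.680 for Srf and 1.13, 0.928 and 0.397 for Cnn2. From gene-level counts the exons behind the remaining Srf reads cannot be read, and 3 libraries are too few for a test of the relation.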
